A study of Mus musculus with 8 samples.

Results

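Respiratory chain assembly factors are nuclear-encoded proteins that build the complexes of oxidative phosphorylation without staying in them. A list of 37 such genes was examined here in *K-Ctrl* and *K-Setd2KO* mouse lung tumors. It comprises 14 factors for complex I, 3 for complex II, 6 for complex III, 12 for complex IV and 2 for complex V. Members were found by symbol through the gene identifier of each row, and all 37 were among the 48709 rows of the count table. The list was drawn up from what the proteins do, with earlier results of these data known.

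The data are raw mRNA counts from 8 tumors, 4 per group. Both groups come from the Cre-inducible *K* model on a mixed B6J/129S4vJae background, and tumors were started by endotracheal delivery of the lentivirus LentiCRISPRv2Cre, which carries Cre recombinase and an sgRNA. The sgRNA was sgGFP in *K-Ctrl* and sgSetd2 in *K-Setd2KO*, so the groups differ in the guide and share Cre, Cas9 and the *K* background. The guide and Cre enter a cell with the same virus, the extent of editing in each tumor was not measured here, and whole tumors also hold stroma and blood cells. The labels call both groups lung adenocarcinoma, whereas the study speaks of low grade adenomas for *K-Setd2KO* and chose controls of the same stage by histology. For age, the study states only an upper limit at tumor initiation for its mice in general. The age of each mouse and whether any tumors came from the same mouse are not given in the sources used here. The p-values weigh the difference between groups against the spread between these tumors, and they may be too small if tumors share a mouse. The comparison asks whether the genes for building the respiratory chain differ between the genotypes.

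As background, the respiratory chain passes electrons from NADH and succinate to oxygen through complexes I to IV, and complex V makes ATP from the resulting proton gradient. Subunits come from both the nuclear and the mitochondrial genome. Assembly factors insert flavin, iron-sulfur clusters, heme and copper, hold intermediates in the inner membrane and support translation of mitochondrially encoded subunits. Loss of many single factors is known to cause inherited mitochondrial disease.

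The shallowest library, *K-Setd2KO* replicate 4, held 5806599 counts, and the deepest, *K-Ctrl* replicate 3, held 21290402. Values are given as CPM, in which each library was brought to the same effective size with trimmed mean of M-values (TMM) factors. *Setd2* itself stood at 140 ± 8.81 CPM (SD) in the 4 *K-Ctrl* tumors and 136 ± 15.5 CPM in the 4 *K-Setd2KO* tumors, and a gene-level count does not show whether the guide cut. Markers of lung epithelium and alveolar type 2 cells summed to 43460 to 65110 CPM among *K-Ctrl* tumors and 52000 to 73750 CPM among *K-Setd2KO* tumors, and none of the 12 was at 0. Members of this list went both ways, with *Sftpb* (log2 fold change 1.09), *Epcam* (0.90) and *Krt18* (0.84) called higher and *Napsa* (-1.60) lower (33.3% called, against 12.7% of all tested genes, edgeR). *Sftpb* lies on chromosome 6, whose tested genes had a median log2 fold change of 0.27. The 7 macrophage markers summed to 583.7 to 1835 CPM among *K-Ctrl* and 196.0 to 362.8 CPM among *K-Setd2KO* tumors. Sums of the 6 pan-leukocyte markers, of which *Lcp1* gave the largest part, were 970.8 to 1745 and 517.1 to 745.7 CPM. Sums of the 6 endothelial markers (431.2 to 1676 and 167.0 to 418.4 CPM) did not overlap either. The 6 T cell markers (44.09 to 108.5 and 7.937 to 34.77 CPM) overlapped once *Cd2* was left out, a choice made after the values were seen (15.97 to 75.72 and 3.691 to 25.42 CPM). Those of fibroblast (497.1 to 1121 and 141.4 to 583.4 CPM), erythroid (150.4 to 805.1 and 76.41 to 202.2 CPM) and ciliated and club cell markers (564.7 to 2877 and 223.0 to 986.0 CPM) overlapped in part, as did those of alveolar type 1 (1183 to 2340 and 1066 to 1712 CPM), B cell (10.22 to 49.42 and 13.01 to 21.88 CPM) and neutrophil markers (15.88 to 20.34 and 13.84 to 55.97 CPM), the last highest in *K-Setd2KO* replicates 1 and 4. Sums of the 5 cardiac muscle markers (81.02 to 255.6 and 41.93 to 220.5 CPM) overlapped as well. Fewer cells of a type and less RNA per cell cannot be told apart in whole tumors, and the part of these shifts in the values below was not tested.

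None of the tested assembly factors passed the test between genotypes. Of 37 members, 35 had enough reads to be tested, and 0 were called higher and 0 lower in *K-Setd2KO* at an adjusted p of 0.05 (edgeR quasi-likelihood test, Benjamini-Hochberg over 14929 genes). Of all genes tested, 12.7% were called, 4.97% higher and 7.74% lower. DESeq2 and limma voom also called 0 members, while DESeq2 called 21.5% of all genes (8.92% higher and 12.5% lower) and voom 11.8% (4.6% higher and 7.21% lower). At an unadjusted p under 0.05 edgeR listed 3 members, *Uqcc3*, *Lyrm7* and *Acad9*, which is 8.57% of those tested against 29.9% of all genes. DESeq2 and voom each listed 4, against 32.3% and 29.9% of all genes. The lowest adjusted p of any member was 0.106, for *Uqcc3*.

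Fold changes of most factors were small and went both ways. The log2 fold change (*K-Setd2KO* minus *K-Ctrl*) was above 0 for 20 members (57.1%) and below 0 for 15, also with upper-quartile or relative log expression scaling, while it was above 0 for 52.7% of all tested genes. Its median was 0.13, against 0.03 over all tested genes, and it ran from -0.42 for *Taco1* to 1.45 for *Lyrm7*. The median size of the difference regardless of sign was 0.21, against 0.34 over all tested genes, while the median standard errors were 0.206 and 0.238. For 31 of 35 members the 95% interval lay inside 1 log2 unit either way, so a change of over 2-fold lay outside it. The intervals of *Lyrm7*, *Ndufaf6*, *Cox11* and *Cox16* reached further.

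**Figure D1:**
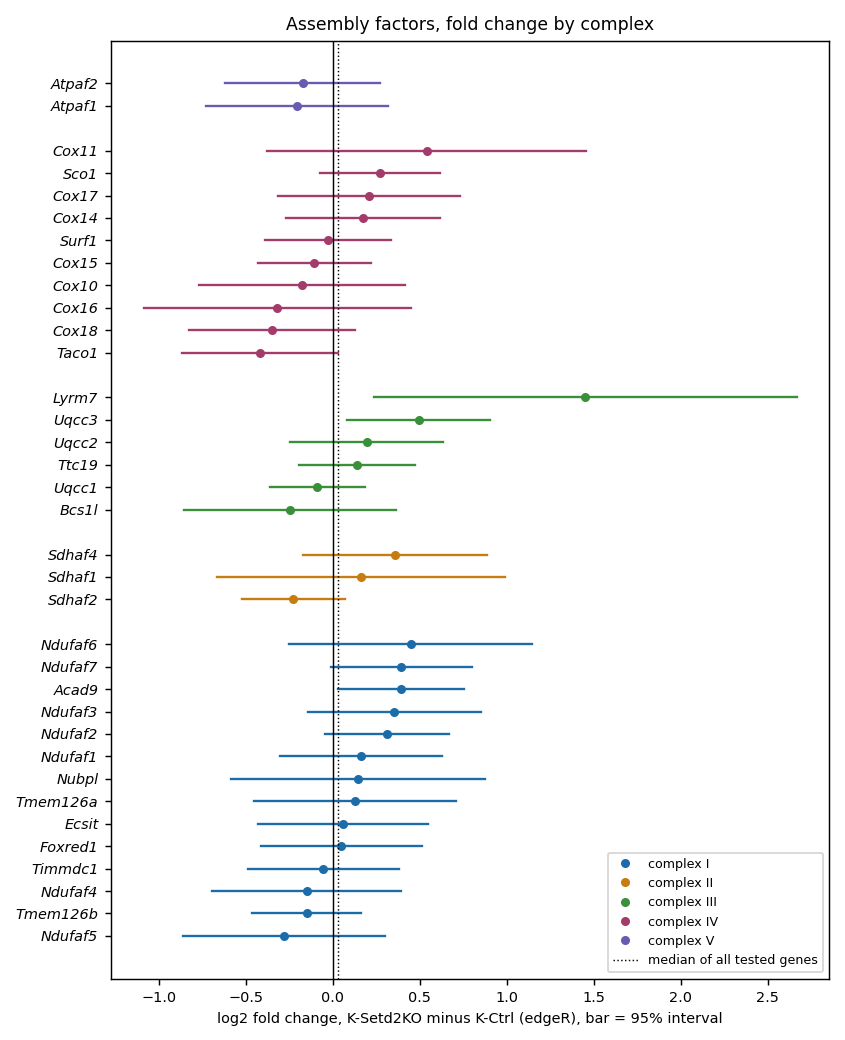
Log2 fold change of the 35 tested assembly factors (x axis, *K-Setd2KO* minus *K-Ctrl*), grouped and coloured by complex, with points for the edgeR estimate and bars for its 95% interval. The dotted line is the median of all tested genes, 0.03. The bars of *Uqcc3*, *Lyrm7* and *Acad9* lie above 0 before adjustment for multiple tests, and all others include 0.

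Tumors separated by genotype in only 2 members. For *Uqcc3* and *Ndufaf2* every *K-Setd2KO* value lay above every *K-Ctrl* value. That is 5.71% of the tested members, whereas 20.3% of all tested genes had no overlap (9.06% with *K-Setd2KO* above and 11.2% with it below).

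Transcript levels were compared between genes per length, as RPKM, the CPM divided by the exon length in kilobases. That length counts all annotated exon bases of a gene, 679 for *Ndufaf2* and 8192 for *Acad9*. RPKM and its order therefore depend on how many exon bases are annotated. *Sco2* and *Cox20*, which share nearly all of their exons with other genes, are left out of the levels. In *K-Ctrl* the other 35 factors had a median of 4.35 RPKM, from 0.226 to 24.7, whereas the 76 nuclear-encoded subunits that they assemble had a median of 33.6, from 2.495 to 152. The same order held for each complex. Medians of factors and subunits were 4.59 and 24.1 RPKM for complex I, 6.34 and 27.3 for complex II, 5.11 and 33.5 for complex III, 3.385 and 53.7 for complex IV and 5.32 and 42.6 for complex V. The highest factors were *Uqcc3* at 24.7 ± 4.16, *Ndufaf2* at 20.4 ± 2.45, *Cox14* at 18.4 ± 2.34, *Surf1* at 16.95 ± 1.98 and *Uqcc2* at 15.5 ± 1.69 RPKM (SD, n = 4 each). Each of these overlapped its neighbour in the order within 1 SD. The next, *Timmdc1* at 10.6 ± 1.33 RPKM, stood apart from *Uqcc2* by more than both SDs. The lowest tested factors were *Lyrm7* at 0.226 ± 0.0888, *Nubpl* at 0.754 ± 0.199 and *Cox16* at 0.887 ± 0.200 RPKM. Without division by length the order differed, and *Cox15* (31.2 CPM), *Sdhaf2* (30.2 CPM) and *Surf1* (29.7 CPM) were highest in *K-Ctrl*. Median *K-Ctrl* levels were then 10.88 CPM over all 37 factors, *Sco2* and *Cox20* included, and 46.32 CPM over the subunits.

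**Figure D2:**
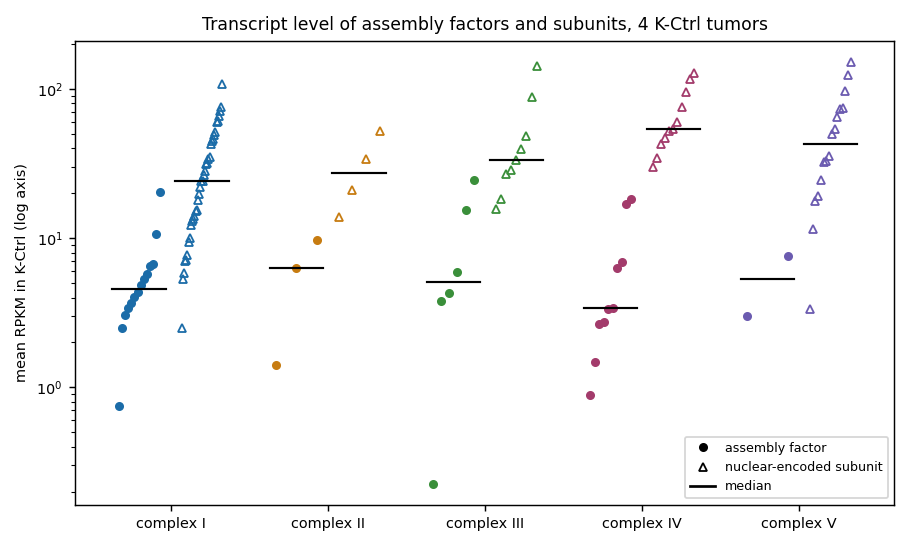
Mean RPKM in the 4 *K-Ctrl* tumors (log axis) for assembly factors (filled circles) and nuclear-encoded subunits (open triangles) of each complex, with the median of each set as a line. *Sco2* and *Cox20* are left out. Median factor levels lie between 3.385 and 6.34 RPKM and median subunit levels between 24.1 and 53.7.

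A few levels are uncertain because the member shares exons with another gene of the table. *Sco2*, a copper-binding factor for complex IV on chr15:89371639-89373818 (GRCm38, as are all positions of the table), had 0 counts in all 8 tumors, which allows up to 3 counts, or 0.138 CPM in the deepest and 0.513 CPM in the shallowest library. All of its exon bases (100%) lie in exons of *Tymp* on its own strand or *Ncaph2* on the other. *Cox20*, a chaperone of the COX2 subunit on chr1:178319130-178322693, had 10, 1, 8 and 5 counts in *K-Ctrl* and 11, 6, 8 and 5 in *K-Setd2KO*. Of its exon bases 91.1% lie in exons of *Hnrnpu* on the opposite strand, which had 5956 to 18714 counts per tumor. Over the whole table, 48 protein-coding genes had at least 90% of their exon bases in opposite-strand exons, and all 48 were under 1 CPM, against 43.5% of the 17044 with no such overlap. Whether counting used the strand is not given in the sources used here, so these 2 members are not read as lowly expressed. Exons of *Sdhaf1* (69.6%), *Cox16* (56.8%) and *Cox11* (48.3%) were also shared to a large extent, and 22 members shared none.

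Among the complex I factors, 10 of 14 had a fold change above 0, with a median log2 value of 0.14, and 0 passed the test. *Acad9* and *Ndufaf7* had the smallest p-values. *Acad9* (chr3:36065979-36092853), a flavoprotein of the acyl-CoA dehydrogenase family that acts in the membrane-arm assembly complex, had 19.5, 22.9, 19.0 and 20.8 CPM in *K-Ctrl* and 24.6, 26.1, 34.1 and 22.9 CPM in *K-Setd2KO*. Replicate 3 of *K-Setd2KO* was the highest, and replicate 4 fell just under the highest *K-Ctrl* tumor, so the groups met at that point. The gene had a log2 fold change of 0.39 (SE 0.160, 95% interval 0.03 to 0.75, adjusted p = 0.137, edgeR). With a correction for exon length and GC content it was 0.58 at an adjusted p of 0.0433, the only call of any member in 19 alternative settings, and without *K-Setd2KO* replicate 3 it was 0.26.

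*Ndufaf7* (chr17:78937135-78948052), a methyltransferase needed for complex I assembly, had 14.7, 18.2, 13.9 and 13.5 CPM in *K-Ctrl* and 18.1, 15.8, 21.9 and 23.4 CPM in *K-Setd2KO*. *K-Ctrl* replicate 2 overlapped the lower 2 in *K-Setd2KO*, for a log2 fold change of 0.39 (SE 0.180, 95% interval -0.01 to 0.80, adjusted p = 0.179, edgeR). *Ndufaf2* (chr13:108052590-108158625), a late-acting factor related to the subunit NDUFA12, was picked out after its values were seen, as 1 of the 2 members without overlap. It had 15.3, 12.2, 12.6 and 15.3 CPM in *K-Ctrl* and 16.2, 19.0, 15.3 and 18.1 CPM in *K-Setd2KO*. The groups were separated by a margin too small to show in 3 digits, and the log2 fold change was 0.31 (SE 0.158, adjusted p = 0.221, edgeR).

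The other partners of *Acad9* in the membrane-arm assembly complex did not follow 1 direction. *Ndufaf1* had a log2 fold change of 0.16 (95% interval -0.30 to 0.63), *Ecsit* of 0.06 (-0.43 to 0.55), *Tmem126b* of -0.15 (-0.46 to 0.16) and *Timmdc1* of -0.05 (-0.49 to 0.38). *Tmem126b* had 27.4 ± 2.20 CPM (SD) in the 4 *K-Ctrl* tumors and 24.6 ± 3.08 CPM in the 4 *K-Setd2KO* tumors, and its relative *Tmem126a*, which serves the ND4 module, had 10.3 ± 2.00 and 11.2 ± 3.62 CPM. *Ndufaf3* and *Ndufaf4*, which work as a pair on the ubiquinone-binding arm, had log2 values of 0.35 (-0.14 to 0.85) and -0.15 (-0.69 to 0.39). *Ndufaf5*, which hydroxylates the subunit NDUFS7, had the lowest value of the group, -0.28 (-0.86 to 0.30). *Ndufaf6*, which acts early in assembly, had the highest, 0.45 (-0.25 to 1.14), with 1 of its *K-Ctrl* tumors far above the other 3. *Nubpl*, which delivers iron-sulfur clusters, stood at 0.15 (-0.58 to 0.87), and the oxidoreductase *Foxred1* at 0.05 (-0.41 to 0.51). All of these intervals include 0.

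The 3 complex II factors took both signs, and 0 passed the test. *Sdhaf2* (chr19:10500513-10525209), needed to attach flavin to the catalytic subunit SDHA, had 28.8, 33.03, 29.7 and 29.2 CPM in *K-Ctrl* and 30.2, 25.1, 24.5 and 23.1 CPM in *K-Setd2KO*. 3 of 4 *K-Setd2KO* tumors lay below all *K-Ctrl* tumors and replicate 1 did not. This gave a log2 fold change of -0.23 (SE 0.132, 95% interval -0.52 to 0.07, adjusted p = 0.282, edgeR). *Sdhaf4* (chr1:23995939-24005656), which binds flavinated SDHA and helps it join the iron-sulfur subunit SDHB, had 6.16, 5.88, 5.31 and 4.82 CPM in *K-Ctrl* and 8.42, 5.58, 8.49 and 5.82 CPM in *K-Setd2KO*. Replicates 1 and 3 of *K-Setd2KO* were above every control, and replicates 2 and 4 were within the *K-Ctrl* range. Its log2 fold change was 0.36 (SE 0.236, adjusted p = 0.345, edgeR). *Sdhaf1*, the LYR-motif protein that brings iron-sulfur clusters to SDHB, had 3.51 ± 0.440 CPM (SD) in the 4 *K-Ctrl* tumors and 3.92 ± 1.79 CPM in the 4 *K-Setd2KO* tumors.

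Complex III factors held both of the smallest p-values of the whole list. *Uqcc3* (chr19:8880016-8880933), which acts early on cytochrome b, had 21.8, 15.5, 20.9 and 23.6 CPM in *K-Ctrl* and 27.0, 36.4, 27.4 and 24.3 CPM in *K-Setd2KO*. Replicate 2 was the lowest of the controls and replicate 2 the highest of the *K-Setd2KO* tumors, and the groups did not overlap. The difference on the log2 scale was 0.49 (SE 0.182, 95% interval 0.08 to 0.90, adjusted p = 0.106, edgeR). Over the alternative settings it stayed between 0.35 and 0.61, and the lowest adjusted p was 0.0555.

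*Lyrm7* (chr11:54826866-54860916), the chaperone that holds the Rieske iron-sulfur protein before its insertion, had the highest fold change of any member on very few reads. Its values were 0.985, 1.18, 0.554 and 0.535 CPM in *K-Ctrl*, from 6 to 16 reads, and 2.47, 0.994, 1.38 and 4.28 CPM in *K-Setd2KO*, from 13 to 48 reads. *K-Setd2KO* replicate 4, the shallowest library, was the highest, and replicate 2 overlapped the controls. The log2 fold change was 1.45 (SE 0.540, 95% interval 0.24 to 2.67, adjusted p = 0.108, edgeR), and it was 1.00 without that library.

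Like *Uqcc3* and *Lyrm7*, the other complex III factors did not pass the test. *Bcs1l*, the ATPase that inserts the Rieske protein, had 8.36 ± 1.48 CPM (SD) in the 4 *K-Ctrl* tumors and 7.06 ± 2.24 CPM in the 4 *K-Setd2KO* tumors, with a log2 fold change of -0.25 (95% interval -0.86 to 0.36). *Ttc19*, which helps clear Rieske fragments, had a log2 fold change of 0.14 (-0.19 to 0.47). *Uqcc1* and *Uqcc2*, which bind newly made cytochrome b, had -0.09 (-0.36 to 0.19) and 0.19 (-0.25 to 0.64). *Uqcc1* was the steadiest member within groups, with a coefficient of variation of 5.68% in *K-Ctrl* and 6.93% in *K-Setd2KO*.

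**Figure D3:**
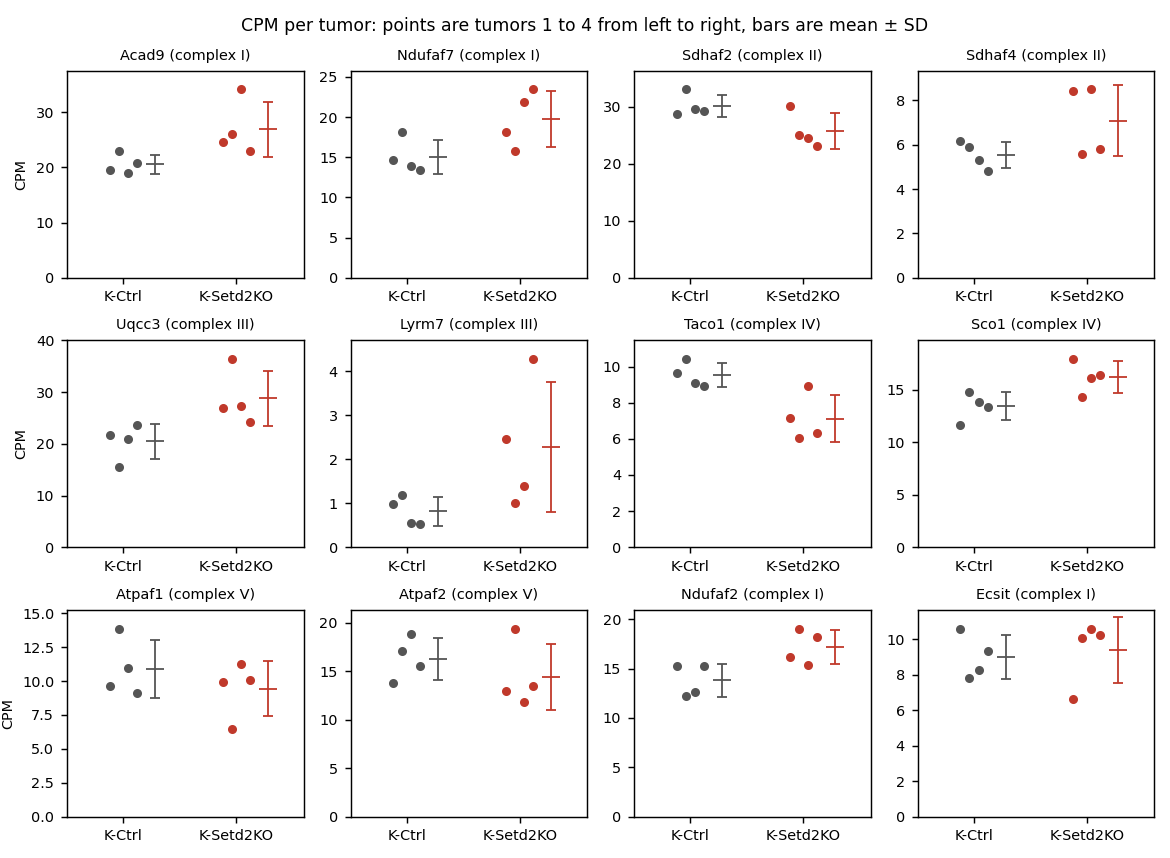
CPM of 12 assembly factors in each tumor (points, tumors 1 to 4 of each group from left to right), with the mean and SD of the 4 tumors as a bar, on axes that start at 0. The *K-Setd2KO* points of *Uqcc3* and *Ndufaf2* lie above all *K-Ctrl* points, and in the other 10 panels the groups meet or overlap.

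Of the 10 complex IV factors tested, 4 had a fold change above 0 and 6 below, with a median log2 value of -0.07. *Taco1* (chr11:106066061-106073612), the translational activator of the mitochondrially encoded subunit COX1, had 9.66, 10.4, 9.09 and 8.92 CPM in *K-Ctrl* and 7.14, 6.04, 8.95 and 6.33 CPM in *K-Setd2KO*. 3 of 4 *K-Setd2KO* tumors lay below all controls, and replicate 3 fell within the *K-Ctrl* range, with a log2 fold change of -0.42 (SE 0.199, 95% interval -0.87 to 0.03, adjusted p = 0.195, edgeR). *Sco1* (chr11:67052670-67067070), which hands copper to COX2, had 11.6, 14.8, 13.8 and 13.4 CPM in *K-Ctrl* and 17.9, 14.3, 16.2 and 16.4 CPM in *K-Setd2KO*. Only *K-Setd2KO* replicate 2 lay under the highest control, and the log2 fold change was 0.27 (SE 0.153, 95% interval -0.07 to 0.62, adjusted p = 0.267, edgeR).

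The remaining complex IV factors can be read by cofactor. In the copper route, *Cox17*, which feeds *Sco1* and *Cox11*, had a log2 fold change of 0.21 (95% interval -0.32 to 0.73), and *Cox11*, on 7 to 66 reads per tumor, 0.54 (-0.38 to 1.46). In the heme route, *Cox10* and *Cox15*, which act one after the other to make heme A, had -0.18 (-0.77 to 0.41) and -0.11 (-0.43 to 0.22). *Cox10* held within a coefficient of variation of 5.73% in *K-Ctrl* but spread to 34.2% in *K-Setd2KO*. Of the factors that handle the protein subunits, *Cox14*, which keeps COX1 stable, had 0.17 (-0.27 to 0.62), *Cox18*, which inserts COX2 into the membrane, -0.35 (-0.83 to 0.13), and *Cox16*, which joins COX2 to the rest, -0.32 (-1.09 to 0.45). *Surf1*, long known from Leigh syndrome, had 29.7 ± 3.46 CPM (SD) in the 4 *K-Ctrl* tumors and 29.1 ± 4.96 CPM in the 4 *K-Setd2KO* tumors. Its log2 fold change of -0.03 (-0.39 to 0.34) was the closest to 0 of any member.

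Complex V has 2 listed factors, chaperones of the catalytic F1 head, and both had lower mean levels in *K-Setd2KO* without passing the test. *Atpaf1* (chr4:115784812-115818828), which binds the beta subunit, had 9.60, 13.9, 10.9 and 9.10 CPM in *K-Ctrl* and 9.91, 6.502, 11.3 and 10.1 CPM in *K-Setd2KO*. *Atpaf2* (chr11:60400626-60418457), which binds the alpha subunit, had 13.8, 17.1, 18.8 and 15.5 CPM in *K-Ctrl* and 12.99, 19.4, 11.8 and 13.5 CPM in *K-Setd2KO*. Groups overlapped for both genes. Their log2 fold changes were -0.21 (SE 0.232, adjusted p = 0.592) and -0.17 (SE 0.199, adjusted p = 0.597, edgeR).

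Individual tumors differed more within *K-Setd2KO* than within *K-Ctrl*. The coefficient of variation was higher in *K-Setd2KO* for 32 of 35 members (91.4%), and for 65.9% of all tested genes. Its median over the members was 13.2% for *K-Ctrl* and 20.9% for *K-Setd2KO*, against 18.2% and 24.5% over all tested genes. *K-Setd2KO* also holds the library with the fewest counts, and the part of depth in this spread was not tested.

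**Figure D4:**
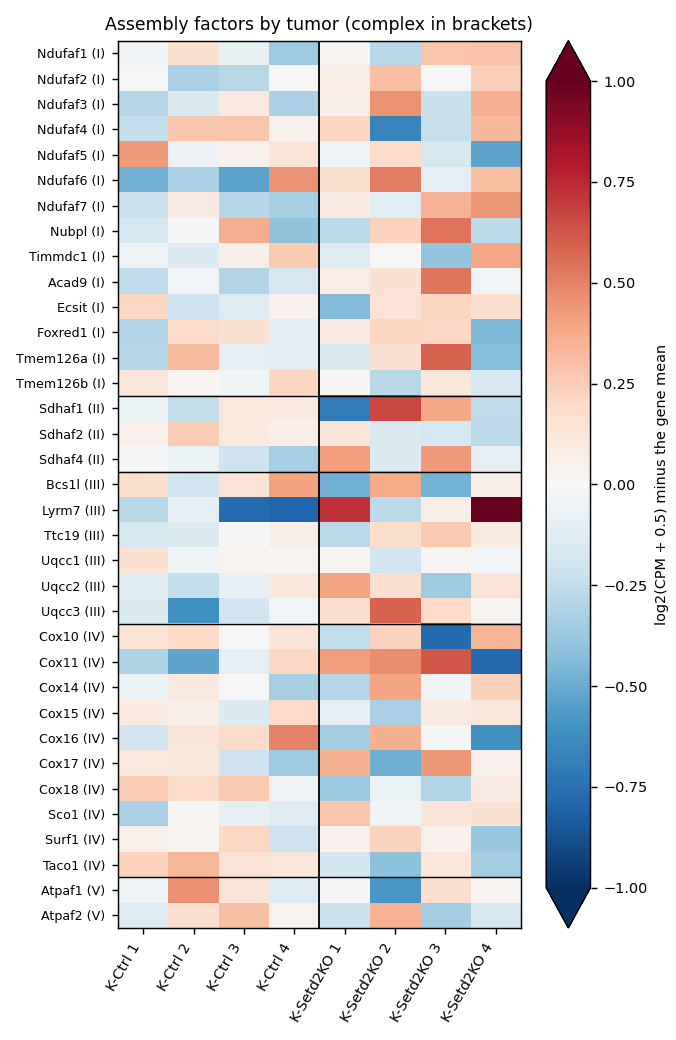
Level of the 35 tested assembly factors (rows, with their complex in brackets) in each of the 8 tumors (columns), as log2(CPM + 0.5) minus the mean of the gene, on a colour scale from -1 to 1. Reds and blues are mixed within both groups, and the *K-Setd2KO* columns hold the stronger colours.

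Beside the factors, the subunits of the same complexes were called higher for a few genes. Of 76 nuclear-encoded subunits tested, 5 were called higher (6.58%, against 4.97% of all tested genes) and 0 lower, 67 had a log2 fold change above 0, and the median was 0.17. The 5 were the complex I subunits *Ndufv3* (log2 fold change 0.58, adjusted p = 0.0203), *Ndufa5* (0.45, 0.0318) and *Ndufb10* (0.55, 0.0486), *Ndufa4* of complex IV (0.46, 0.0495) and *Atp5g3* of complex V (0.51, 0.0360), all by edgeR. *Ndufa5* and *Ndufa4* lie on chromosome 6, whose 839 tested genes had a median log2 fold change of 0.27, against 0.03 over all tested genes, and the part of this shift in their values was not tested. The list of 37 assembly factors has 0 genes on that chromosome. Leaving out 1 tumor gave 0 to 4 calls for complex I subunits, 0 to 1 for complex IV and 0 to 3 for complex V, and without *K-Ctrl* replicate 1, 2 or 3 there were 0 in all of these. Medians of the subunits were 0.19 for complex I, -0.00 for complex II, 0.11 for complex III, 0.19 for complex IV and 0.18 for complex V, while those of the factors were 0.14, 0.16, 0.17, -0.07 and -0.19. The median of the complex II factors fell below 0 with limma voom and without *K-Setd2KO* replicate 2. The smallest p-values among complex II and III subunits belonged to *Sdha* (-0.10, adjusted p = 0.647) and *Uqcr10* (0.45, adjusted p = 0.0881). Of the 13 mitochondrially encoded subunits 0 were called, with a median of -0.07 and the smallest p for *mt-Nd4* (-0.22, adjusted p = 0.488). Of these 13, *mt-Nd3*, *mt-Nd4l*, *mt-Co2*, *mt-Co3*, *mt-Atp6* and *mt-Atp8* held only 3 to 211 counts per tumor, against 9301 to 271206 for the other 7, so the counts of these 6 are not read as transcript levels. The median of the other 7 was -0.07. Over all 13 it ran from -0.24 without *K-Ctrl* replicate 3 to -0.00150 without *K-Setd2KO* replicate 1. The difference between factors and subunits was not tested.

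Averaged per tumor over the 35 tested members, log2 CPM after centring each gene was -0.07, -0.01, -0.03 and -0.04 in *K-Ctrl* and -0.01, 0.07, 0.07 and 0.01 in *K-Setd2KO*. *K-Setd2KO* replicate 1 lay level with *K-Ctrl* replicate 2. Over the nuclear-encoded subunits the *K-Setd2KO* tumors had 0.16, 0.22, 0.12 and -0.11, against -0.11, -0.11, -0.07 and -0.09 in *K-Ctrl*. Replicate 4 of *K-Setd2KO* was thus as low as the controls in its subunits. Its value for the factors rested on *Lyrm7*. Without that gene, a choice made after the values were seen, the factors averaged -0.06, -0.01, -0.00 and -0.01 in *K-Ctrl* and -0.04, 0.08, 0.07 and -0.04 in *K-Setd2KO*, and replicates 1 and 4 of *K-Setd2KO* lay within the range of the controls.

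**Figure D5:**
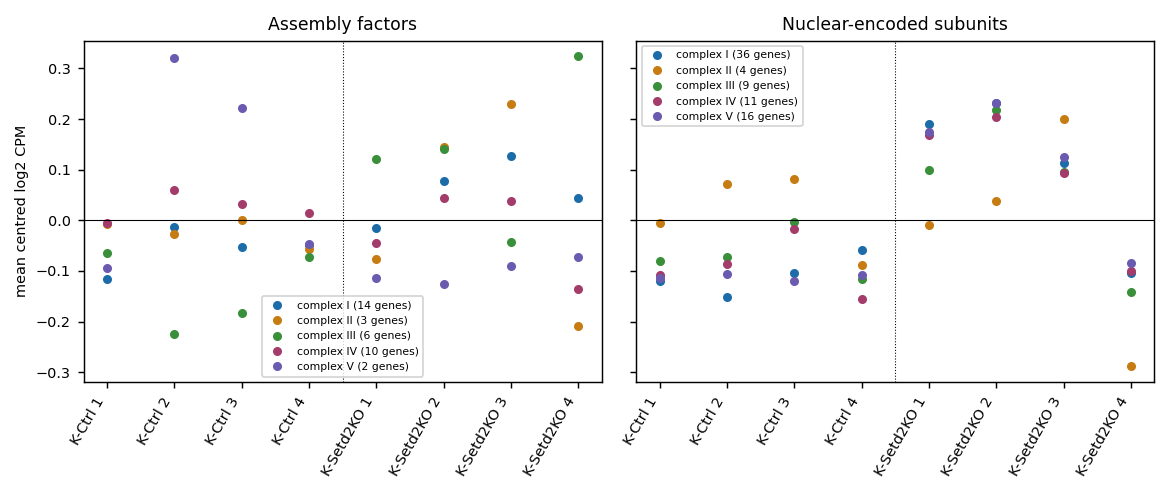
Mean centred log2 CPM per tumor (x axis) of the assembly factors (left) and the nuclear-encoded subunits (right) of each complex, 1 point per complex and tumor, with the number of tested genes in the key and a dotted line between the genotypes. Subunit points of complexes I, III, IV and V move together among the *K-Setd2KO* tumors. Factor points of different complexes scatter, most of all for complexes with few genes.

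Other genes of the same processes were listed too. Of 24 further assembly factors tested, 0 were called by edgeR, and their median log2 value was 0.04, or -0.00979 without *K-Ctrl* replicate 2 and 0.09 without *K-Setd2KO* replicate 4. The smallest p was that of *Tmem70*, a complex V factor, at -0.53 (SE 0.177, adjusted p = 0.0784), with no overlap between groups. At an unadjusted p under 0.05 edgeR listed 3 of them (12.5%, against 29.9% of all tested genes), and DESeq2 called 1 higher and 1 lower (8.92% and 12.5% of all genes). Groups did not overlap in 4 of the 24 (16.7%, against 20.3% of all tested genes), below the controls in *Tmem70* and above them in the other 3. These were *Fmc1* (log2 fold change 0.87, SE 0.297, adjusted p = 0.0859), *Cox19* (0.48, adjusted p = 0.1502) and *Chchd7* (0.47, adjusted p = 0.180, edgeR), named after their values were seen. Of 19 genes that supply iron-sulfur clusters and heme, 2 were called higher (10.5%, against 4.97% of all tested genes) and 0 lower, or 1 to 3 higher when 1 tumor was left out and 1 lower without *K-Setd2KO* replicate 2. *Isca1*, needed for 4Fe-4S clusters, had 50.04 ± 5.28 CPM (SD) in the 4 *K-Ctrl* tumors and 87.3 ± 10.1 CPM in the 4 *K-Setd2KO* tumors, a log2 fold change of 0.80 (SE 0.126, adjusted p = 0.00826, edgeR). *Nfu1*, a carrier of such clusters, had 23.1 ± 2.20 and 33.6 ± 4.05 CPM (0.54, SE 0.140, adjusted p = 0.0372, edgeR). *Nfu1* and *Fmc1* also lie on chromosome 6, where the median of the tested genes was 0.27.

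Tumors of both sexes were present, but not evenly. By *Xist* and Y-linked genes *K-Ctrl* replicate 2 and *K-Setd2KO* replicates 1, 2 and 4 were female. Within males the log2 ratio of group means was above 0 for 22 of 35 members (median 0.09) and within females for 17 (median -0.02), each with 1 tumor on 1 side. *Uqcc3* had ratios of 0.31 and 0.91 in males and females, *Lyrm7* of 0.91 and 1.07, *Acad9* of 0.79 and 0.10 and *Taco1* of -0.04 and -0.67.

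Letters in the promoters, which the list did not use, were also counted. RefSeq (GRCm38.p6) gave a promoter of 300 bases, 250 before and 50 after the gene start, for 33 of 37 members. In all, 8 sets of letters were searched on both strands. CTTCCGG, the core bound by ETS-family factors, was in 14 of the 33 promoters (42.4%), against 19.0% of tested genes and 9.93% of all genes with a promoter. The NRF1 motif (GCGC on either side of an A and any base) was in 4 (12.1%, against 10.7% of tested genes), and AAGATGGCG, bound by YY1, in 3 (9.09%, against 3.33%). AAGGTCA, a site bound by estrogen-related receptors, was in 1, that of *Uqcc3* (3.03%, against 3.90%). CACGTG, the E-box, was in 6 (18.2%, against 11.3%), TGACGTCA, the cyclic AMP response element, in 2 (6.06%, against 3.47%), the CCAAT box in 16 (48.5%, against 42.2%) and TATAAA, the TATA box, in 2 (6.06%, against 9.17%). These are matches of letters and were not tested. Members with CTTCCGG had a median log2 fold change of -0.03 (13 tested) and those without it of 0.14.

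The promoters of 3 members are shown, those of the 2 members whose groups did not overlap and that of *Sdhaf2*, which holds CTTCCGG at 2 places. Capitals mark the searched letters on either strand, AAGGTCA, the E-box and the CCAAT box, read as its complement, in *Uqcc3*, the CCAAT box on both strands side by side in *Ndufaf2*, and the ETS core in *Sdhaf2*. No marked match overlaps another. The windows are chr19:8880884-8881183, chr13:108158576-108158875 and chr19:10525160-10525459, all on the minus strand and written 5′ to 3′ along the gene.
Uqcc3: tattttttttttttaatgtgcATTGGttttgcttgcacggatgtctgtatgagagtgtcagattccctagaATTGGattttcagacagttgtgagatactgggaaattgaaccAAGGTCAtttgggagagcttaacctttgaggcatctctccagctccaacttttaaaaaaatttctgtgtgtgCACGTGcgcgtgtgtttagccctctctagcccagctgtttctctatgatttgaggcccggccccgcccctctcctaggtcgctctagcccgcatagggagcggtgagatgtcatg
Ndufaf2: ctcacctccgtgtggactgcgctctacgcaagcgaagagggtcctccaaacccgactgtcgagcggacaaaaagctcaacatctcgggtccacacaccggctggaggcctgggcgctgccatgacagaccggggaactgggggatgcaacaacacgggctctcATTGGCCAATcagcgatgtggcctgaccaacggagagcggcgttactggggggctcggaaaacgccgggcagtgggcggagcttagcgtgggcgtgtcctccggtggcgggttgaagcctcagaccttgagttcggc
Sdhaf2: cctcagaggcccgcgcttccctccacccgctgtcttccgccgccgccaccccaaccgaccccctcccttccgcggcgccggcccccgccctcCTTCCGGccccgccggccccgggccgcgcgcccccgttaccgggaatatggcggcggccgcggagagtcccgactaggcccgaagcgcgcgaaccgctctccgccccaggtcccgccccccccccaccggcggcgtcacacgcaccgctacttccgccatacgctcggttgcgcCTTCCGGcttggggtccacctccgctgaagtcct
Of these 3 members, *Uqcc3* and *Ndufaf2* had log2 fold changes of 0.49 and 0.31 and *Sdhaf2* of -0.23, and none passed the test.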

How the data were processed

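RNA of 8 tumors was sequenced, and the authors deposited a single table of raw, unnormalized counts per gene. Per the labels, reads were aligned with STAR 2.5.2b to GRCm38.p4 and counted with featureCounts 1.5.0-p1 from a stranded mRNA kit. The annotation release and strand setting are not given in the sources used here. The labels' extraction text speaks of cell lines, while the design text speaks of flash frozen tumors, the word used here.

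Identifiers were named through GENCODE M21, which held 48349 of 48709 (99.26%). Coordinates and exons are those of the table. Library totals ran from 5806599 to 21290402, and 3 counts equalled 0.138 to 0.513 CPM. No 2 tumors of a group agreed within sampling noise (lowest chi-square per degree of freedom 30.5).

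In R 4.3.3, edgeR 4.0.16 (filterByExpr, TMM, robust quasi-likelihood test for genotype, tested on simulated data) was fitted to all 14929 genes kept, with Benjamini-Hochberg adjustment. The simulation changed well-counted genes by at least 2-fold with a single spread between tumors for all genes. It does not cover smaller changes, such as those of most members, or genes with few counts. The SE is the log2 fold change over the square root of F. DESeq2 1.42.0, the study's tool, limma voom 3.58.1, other scalings, filters and covariates and leaving out each tumor were alternatives.

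The members and the other lists (subunits of each complex, mitochondrially encoded subunits, further assembly factors, iron-sulfur and heme supply, cell markers) were chosen with earlier results of these data known. All 8 values are given for the 2 members of smallest p in each complex and for *Ndufaf2*; of other lists, genes past the threshold or the smallest p are named. Protein sequences were not used here. The allele of the mouse model is not reported here.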

Additional observations from a re-analysis of the deposited data

Results flagged for a closer look

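In 2 of 74 groups of 4 tumors (35 tested members and 2 untested ones in both genotypes) 1 tumor stood far from the other 3, by the gap to its nearest neighbour over the range of the group (Dixon's criterion at the 95% level). About 3.7 such groups arise by chance among 74, although the groups of *Sco2*, at 0 counts in every tumor, could not be set apart. *Ndufaf6* had 7.229 CPM in *K-Ctrl* replicate 4, against 3.416 to 4.034 CPM in the other controls, and without this tumor its log2 fold change was 0.76 in place of 0.45 (lowest adjusted p over all settings 0.108, edgeR). *Ecsit* had 6.625 CPM in *K-Setd2KO* replicate 1, against 10.1 to 10.61 CPM in the other *K-Setd2KO* tumors, and without it the log2 fold change was 0.20 in place of 0.06.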

How the results depend on the processing

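No member was called in 18 of 19 alternative settings. The length and GC correction called 1 member higher, the complex I factor *Acad9*. The median log2 fold change of all tested members (0.13) was 0.0222 when only genes with 10 counts or more in each tumor were kept, 0.0743 with limma voom, 0.0790 with a sex term and 0.21 with the length and GC correction, and 0.0121 to 0.121 when 1 tumor was left out, lowest without *K-Setd2KO* replicate 2 or 3. The median of complex I factors (0.14) was 0.23 with the length and GC correction and 0.0268 to 0.211 when 1 tumor was left out, lowest without *K-Setd2KO* replicate 3. That of complex II factors (0.16) was -0.0203 with voom, 0.34 with the sex term and -0.13 to 0.26 when 1 tumor was left out, lowest without *K-Setd2KO* replicate 2. That of complex IV factors (-0.07) was -0.14 under that count filter and -0.00133 with the length and GC correction, and -0.0770 to -0.0132 when 1 tumor was left out, nearest to 0 without *K-Setd2KO* replicate 3. That of complex V factors (-0.19) was then -0.257 to -0.113, nearest to 0 without *K-Ctrl* replicate 2, and those of complex II subunits and iron-sulfur and heme genes were -0.0850 to 0.0762 and 0.0161 to 0.143, the first lowest without *K-Setd2KO* replicate 3 and the second without *K-Ctrl* replicate 4. Of 663 fold changes of members over the settings, 23 had the other sign. The cause of these shifts was not tested. Over all genes DESeq2 called 3194 and the sex term 1237, and 763 to 2058 were called when 1 tumor was left out, fewest without *K-Ctrl* replicate 3.

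Replicate numbers were not treated as pairs. The deviations of same-numbered tumors correlated at -0.074, -0.03, 0.191 and -0.023, and those of differently numbered tumors at -0.193 to 0.131. Such correlations cannot show whether tumors shared a mouse or a batch. With the replicate block 1341 genes and 0 members were called and the median of the members was 0.0524. The replicate block with the length and GC correction gave a median of 0.21 for complex I factors.

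The intervals of *Lyrm7* (6 to 48 counts per tumor), *Ndufaf6* (38 to 115), *Cox11* (7 to 66) and *Cox16* (10 to 73) reached past 2-fold, and *Cox20* had 1 to 11 counts. *Cox11*, *Cox16*, *Cox20* and *Sco2* share exons with other genes. The part of depth and of shared exons was not tested.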
